A study of Mus musculus with 10 samples.

Results

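The genes of cholesterol synthesis and sterol handling were followed in the inflamed synovium of 10 male DBA/1J mice. The members are 28 genes, chosen by their known roles: the enzymes of the mevalonate and cholesterol pathway, the proteins that sense sterols, and those that carry or store them. A probe set stood for 26 of them, among 18128 genes that 39993 probe sets of the value table could name. Acat2 and Soat1 were not analysed here. Where several probe sets named a gene alone, the one with the highest mean over the 10 arrays was used.

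Every mouse was labelled as 8 weeks old and had collagen antibody-induced arthritis. An injected antibody against type II collagen (1 mg, day 8) and then bacterial lipopolysaccharide (25 µg, day 11) inflame the joints in this model, and the mice were killed on day 12. Vehicle mice (5) received corn oil by mouth, and the maslinic acid group (5 mice) had the same oil with 200 mg per kg of body weight of maslinic acid each day. The mice on arrays had been picked from larger groups by a criterion that the design text does not state, and untreated mice are not analysed here. RNA of each mouse was put on 1 Affymetrix array, and the number of arrays limits the precision.

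Cholesterol is built from acetyl units by way of mevalonate, isoprenoid diphosphates, squalene and lanosterol. When membranes of the endoplasmic reticulum are poor in cholesterol, Scap escorts the transcription factor precursor made from Srebf2 to the Golgi, where it is cleaved and sent to the nucleus to switch on most genes of the pathway. Insig1 and Insig2 hold Scap back when sterols are plentiful, and Npc1 and Npc2 release cholesterol taken up in lipoproteins from the lysosome. Maslinic acid is a plant triterpene, a class of molecules that plants build from oxidosqualene, the substrate of the animal enzyme encoded by Lss.

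The deposited values look like log2 intensities by their level, but differences between arrays are far smaller than such intensities show. Across arrays, the SD of a probe set had a median of 6.68e-06, and 93.5% of probe sets spanned less than 0.001. The scale of a difference is therefore unknown, and no fold change is given. Values are given below in steps of 1e-06, the last decimal deposited, counted up from the lowest of the 10 arrays for that gene. Differences are given as Hedges' g, the mean of the maslinic acid group minus that of the vehicle group divided by the pooled SD of the groups and corrected for small samples, with a 95% confidence interval and n = 5 per group.

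The labelled tissue was checked against marker genes. Prg4, the lubricin of the synovial lining, had a level of 11.55, above 98.8% of genes, and 8 of 10 synovial fibroblast markers lay above the median gene. Other tissue was present as well: 10 of 11 skeletal muscle markers, 7 of 8 adipocyte markers and all 9 neutrophil markers lay above that median, against 1 of 9 markers of skin. Vehicle replicates 3 and 5 stood apart, with array quality weights of 0.401 and 0.309 in limma against 0.809 to 2.25 for the other arrays, so that counts are also given without them. Vehicle replicate 2 stood apart in the members themselves, as described further on. RNA came from whole tissue, in which fewer cells of a type and less RNA per cell cannot be told apart.

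No member passed the test between maslinic acid and vehicle. Of the 26 measured members, 0 had an adjusted p under 0.05 in limma with Benjamini-Hochberg adjustment over all genes, beside 0.0% of all genes. The lowest adjusted p of a member in limma was 0.525. At an unadjusted p under 0.05 in limma there were 4 members, 15.4% of those measured, beside 8.56% of all genes. Among them, Mvd and Tm7sf2 (synthesis) and Stard4 (transport) had lower values with maslinic acid, and Npc1 (lysosomal export) had higher values. The 3 lower members are 11.5% of those measured beside 4.34% of all genes, and the 1 higher member is 3.85% beside 4.22%. Mvd was the only member whose groups did not overlap, and 0.734% of all genes had such a separation with lower values and 0.645% with higher values.

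The means of 17 members were lower with maslinic acid and those of 9 were higher, where 48.3% of all genes were lower and 47.9% higher. The median g of the members was -0.15, and that of all genes was 0.00. The enzymes of synthesis leaned to lower values (15 of 19, median g = -0.26), while 3 of 4 sensing genes and 2 of 3 transport genes had higher means. The scaling of the arrays moved this split. Quantile normalization keeps only the rank of a probe set on each array, so that a few changes of rank can set its g. Lbr had no spread at all there. After quantile normalization 4 members had higher means and the enzymes were lower in 16 of 19. Their median g was then -0.38, beside -0.27 for all genes. With each array centred on its median the enzymes were also lower in 16 of 19. Their median g of -0.44 was then close to that of all genes (-0.39). The array medians ran from 6.74466 to 6.74493, which is wide beside the median SD of a probe set (6.68e-06). Centring thus puts 1 shared shift per array into every gene. Members with narrow ranges then had nearly the same g (Mvk -0.40, Pmvk -0.39, Lss -0.42), so that this closeness says nothing about the members. Of all genes at an unadjusted p under 0.05, 49.3% were higher in the deposited values, 13.7% after quantile normalization and 63.4% with centred arrays. Without vehicle replicates 3 and 5 the enzymes were lower in 16 of 19 (median g = -0.50, beside -0.05 for all genes), and the members at an unadjusted p under 0.05 in limma were Mvd, Fdps, Tm7sf2 and Stard4, all lower. Those 4 are 15.4% of members beside 4.46% of all genes lower, 2.39% higher and 6.85% in either direction. Without these arrays Mvd, Fdps and Tm7sf2 had no overlap between groups, all lower (11.5% of members, beside 2.74% of all genes lower and 1.51% higher), and 19 members had lower means (73.1%, beside 51.8% of all genes lower and 46.7% higher). Without vehicle replicate 2 the enzymes were lower in 12 of 19 (median g = -0.11), and all members in 13 of 26 (50.0%, beside 49.6% of all genes lower and 49.3% higher; median g = 0.00). The 4 members at an unadjusted p under 0.05 in limma were then again Mvd, Tm7sf2, Stard4 and Npc1, beside 7.85% of all genes (4.14% higher, 3.71% lower), and Mvd alone had no overlap, beside 0.965% of all genes lower and 1.07% higher.

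**Figure D1:**
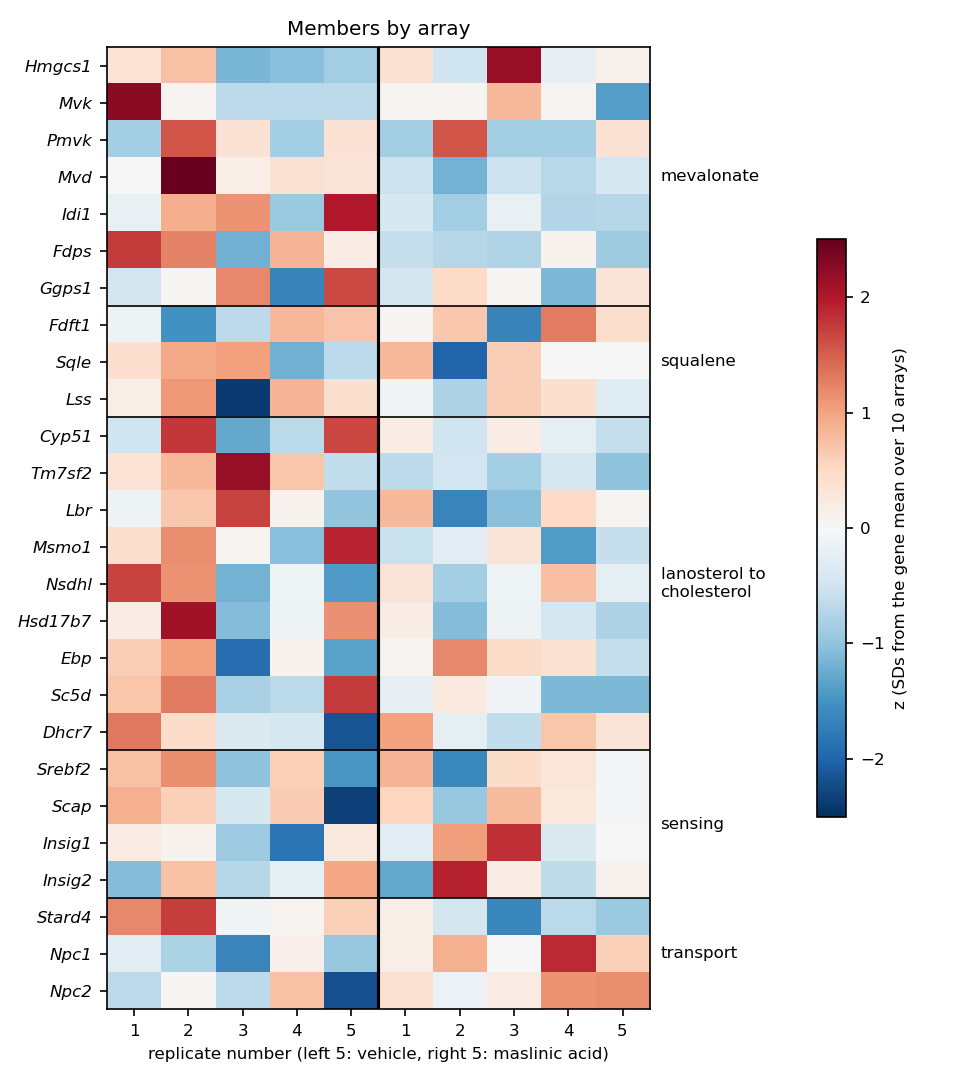
Heat map of z, the distance of each value from the gene's mean over 10 arrays in SDs, for 26 members (rows, ordered by role) on 10 arrays (columns, vehicle left of the line and maslinic acid right of it). The column of vehicle replicate 2 is above the gene's own mean in 24 of 26 members, and the rows of Mvd, Tm7sf2 and Stard4 are mostly higher on the left, that of Npc1 higher on the right.

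**Figure D2:**
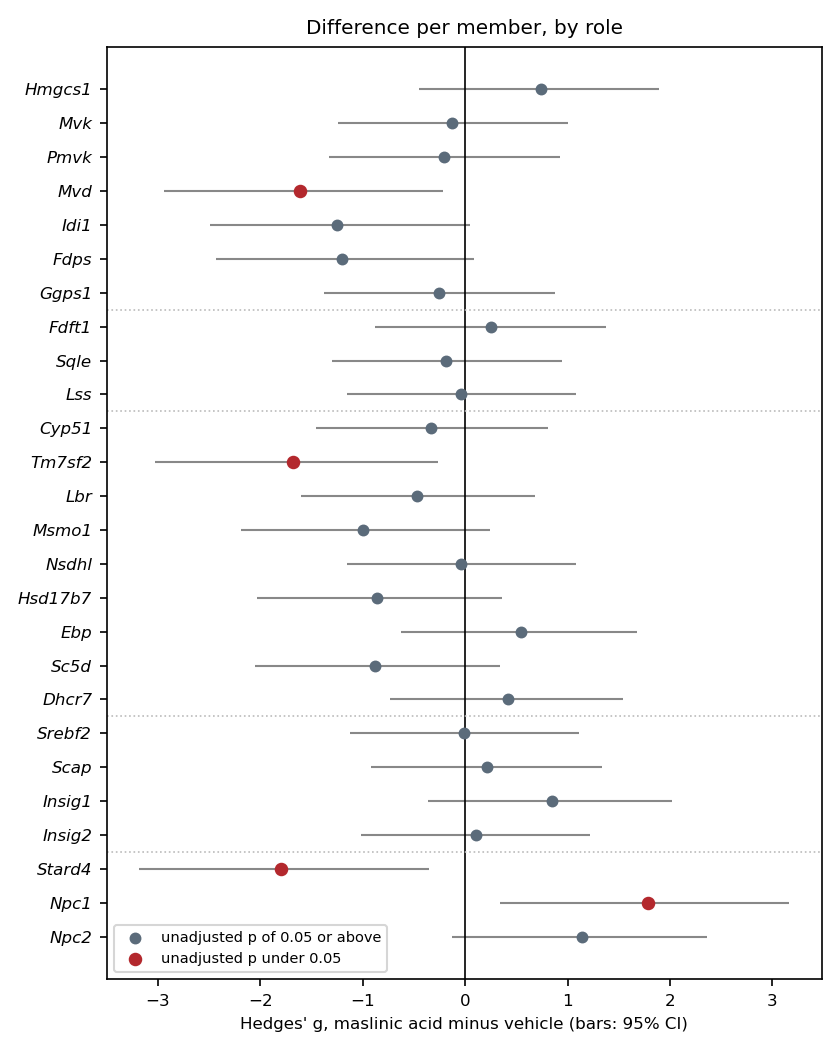
Hedges' g of each member (points) with its 95% confidence interval (bars), maslinic acid minus vehicle, 5 arrays per group, in order of role from mevalonate at the top to transport at the bottom. Intervals of Mvd, Tm7sf2, Stard4 and Npc1, drawn in red, do not cross 0, and none of the 26 members passed after adjustment over all genes.

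Among the mevalonate steps, Mvd had groups that did not overlap in the deposited values. It encodes mevalonate diphosphate decarboxylase, which makes the first isoprenoid unit, isopentenyl diphosphate. Its vehicle arrays, replicates 1 to 5, stood 22, 68, 25, 29 and 28 steps above the lowest array, and its maslinic acid arrays stood at 12, 0, 12, 9 and 14 steps. Every vehicle array thus lay above every maslinic acid array, and vehicle replicate 2 lay far above the other arrays. The means were 34.4 ± 18.98 steps in vehicle and 9.4 ± 5.5 steps with maslinic acid (SD, n = 5 each). The difference had g = -1.61 (95% CI -2.94 to -0.22; limma p = 0.0185, adjusted p = 0.535; exact permutation p = 0.00794, two-sided, the smallest that 5 against 5 arrays can give). Without single arrays g ran from -3.15 to -1.40. After quantile normalization, with each array centred on its median or when its probe sets were averaged, Mvd was not among the members at an unadjusted p under 0.05 in limma. The range of Mvd, 68 steps, is narrower than the spread of the array medians, so that its centred values mostly carry the array's shift.

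Idi1, the isomerase that follows Mvd, and Fdps, farnesyl diphosphate synthase, had lower means with maslinic acid without reaching an unadjusted p of 0.05 in the deposited values. Idi1 stood at 113, 279, 311, 0 and 447 steps in vehicle replicates 1 to 5 and at 81, 9, 114, 29 and 34 steps in maslinic acid replicates 1 to 5. The vehicle arrays of Idi1 held both the lowest and the 3 highest values, so that the groups overlapped (g = -1.25, 95% CI -2.49 to 0.05; limma p = 0.0524, adjusted p = 0.583; exact permutation p = 0.0952, two-sided). Fdps stood at 271, 224, 0, 189 and 127 steps in vehicle mice and at 57, 45, 42, 118 and 29 steps in maslinic acid mice. All vehicle arrays of Fdps but replicate 3, the lowest of the 10, lay above all maslinic acid arrays (g = -1.20, 95% CI -2.43 to 0.09; limma p = 0.0602, adjusted p = 0.586; exact permutation p = 0.0794, two-sided). Both passed that unadjusted threshold in limma under some other settings. Fdps did so without vehicle replicate 3 (g = -2.70), without vehicle replicates 3 and 5 (-3.98) and with centred arrays (-2.08). The centred values also carry the shift of the array medians. Idi1 did so without vehicle replicate 1 (-1.44) and without vehicle replicate 4 (-2.18), while without replicates 3 and 5 its g was -0.76. Idi1, Fdps and the members described in this way below that did not reach an unadjusted p of 0.05 were chosen after their values were seen, apart from the sensing genes and Npc2.

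Hmgcs1, the earliest enzyme of the pathway among the measured members and a classic target of the Srebf2 protein, had the opposite sign (g = 0.74, 95% CI -0.46 to 1.89). Its 10 values spanned 759 steps, the widest range of any enzyme here, with the highest in maslinic acid replicate 3 and the lowest in vehicle replicate 3. The direction of Hmgcs1 turned after quantile normalization (g = -0.89). Ggps1, which makes geranylgeranyl diphosphate for protein prenylation, had g = -0.26 (95% CI -1.38 to 0.88). The kinases Mvk (g = -0.12) and Pmvk (g = -0.21) could hardly be measured at this rounding, since Mvk held 5 distinct values over 10 arrays within 5 steps and Pmvk held 3 within 2 steps.

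The 3 enzymes from squalene to lanosterol had means that differed in both directions, with g between -0.18 and 0.25. Fdft1, squalene synthase, had g = 0.25 (95% CI -0.88 to 1.37). Sqle, the epoxidase that makes oxidosqualene, had g = -0.18 (95% CI -1.30 to 0.94). Lss, lanosterol synthase, which closes oxidosqualene into the first sterol, had g = -0.04 (95% CI -1.16 to 1.08). Each interval includes 0 and reaches beyond 1 SD on at least 1 side, so that a difference of that size on that side remains possible. Lss was lowest in vehicle replicate 3, and that array lay 7 steps below any other, the nearest being maslinic acid replicate 2.

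Between lanosterol and cholesterol, 7 of 9 enzymes had lower means with maslinic acid (median g = -0.47), and in the deposited values Tm7sf2 alone of the 9 reached an unadjusted p under 0.05 in limma. Tm7sf2 encodes one of the sterol reductases that remove the double bond left by the lanosterol demethylase. Its vehicle arrays stood at 56, 75, 131, 70 and 16 steps and its maslinic acid arrays at 15, 22, 7, 24 and 0 steps. The first 4 vehicle replicates lay above every maslinic acid array, while vehicle replicate 5 lay among them. The means were 69.6 ± 41.4 steps in vehicle and 13.6 ± 10.1 steps with maslinic acid (SD, n = 5 each). The difference had g = -1.68 (95% CI -3.03 to -0.26; limma p = 0.0154, adjusted p = 0.534; exact permutation p = 0.0238, two-sided). Without single arrays g ran from -2.69, without vehicle replicate 5, to -1.47, and without vehicle replicates 3 and 5 it was -4.63. Tm7sf2 was not at an unadjusted p under 0.05 in limma after quantile normalization (g = -0.25) or with centred arrays (-0.83). Its range of 131 steps is narrower than the spread of the array medians (6.74466 to 6.74493). Its centred values therefore mostly carry the array's shift, and that setting is no check of Tm7sf2. Its level of 6.71 was below that of the median probe set (6.74), among the lowest of the members.

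Lbr, the lamin B receptor, carries the same reductase activity in the nuclear envelope and was the brightest member, with a level of 11.35 above 98.6% of genes. It stood at 64, 98, 140, 73 and 28 steps in vehicle mice and at 103, 0, 26, 90 and 72 steps in maslinic acid mice. These values overlapped broadly (g = -0.47, 95% CI -1.60 to 0.68). The pair thus had the same sign, and whether their differences differ from each other was not tested. Both were highest in vehicle replicate 3.

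Msmo1, the sterol methyl oxidase, had g = -0.998 (95% CI -2.19 to 0.25), Sc5d, a sterol desaturase, had -0.88 (95% CI -2.06 to 0.34), and Hsd17b7, a sterol ketone reductase, had -0.86 (95% CI -2.03 to 0.36). Msmo1 was highest in vehicle replicate 5 and lowest in maslinic acid replicate 4. Cyp51, the lanosterol demethylase, was high in vehicle replicates 2 and 5 alone (35 and 34 steps, against at most 17 steps on any other array), with g = -0.33 (95% CI -1.45 to 0.81). Nsdhl, a decarboxylating sterol dehydrogenase, had g = -0.04 (95% CI -1.16 to 1.08). The values depended on the setting: after quantile normalization Nsdhl (g = -1.44) and Sc5d (-1.33) were at an unadjusted p under 0.05 in limma, while Msmo1 and Hsd17b7 were both at -0.14. Without vehicle replicate 3 Hsd17b7 (-1.49) was at such a p, and without vehicle replicate 4 Msmo1 (-1.72) was. Ebp, the sterol isomerase (g = 0.54, 95% CI -0.62 to 1.68), and Dhcr7, which completes the pathway in one of its branches (g = 0.41, 95% CI -0.74 to 1.54), had higher means with maslinic acid. Without vehicle replicates 3 and 5 the signs of both turned (Ebp -0.40, Dhcr7 -0.25).

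The sensing genes showed no difference that the arrays could resolve. Srebf2, the transcription factor of the pathway, stood at 106, 125, 28, 100 and 7 steps in vehicle mice and at 111, 0, 94, 87 and 72 steps in maslinic acid mice. Its group means were 73.2 ± 52.2 and 72.8 ± 43.0 steps (SD, n = 5 each), with g = -0.01 (95% CI -1.13 to 1.11; exact permutation p = 0.992, two-sided). Scap, the sterol-sensing escort protein, stood at 532, 486, 320, 490 and 0 steps in vehicle mice and at 476, 230, 518, 430 and 380 steps in maslinic acid mice. Both Srebf2 and Scap were low in vehicle replicate 5, and Scap had g = 0.21 (95% CI -0.92 to 1.33; exact permutation p = 0.762, two-sided). Without vehicle replicates 3 and 5 the g of Scap was -0.90.

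Insig1, the retention protein that is itself induced by the Srebf2 protein, stood at 96, 90, 44, 0 and 98 steps in vehicle mice and at 73, 135, 171, 69 and 86 steps in maslinic acid mice. The 2 highest arrays belonged to the maslinic acid group and the 2 lowest to the vehicle group, with the rest mixed (g = 0.85, 95% CI -0.36 to 2.02; limma p = 0.161, adjusted p = 0.660; exact permutation p = 0.198, two-sided). Its relative Insig2 stood at 6, 59, 17, 31 and 66 steps in vehicle mice and at 0, 94, 43, 19 and 41 steps in maslinic acid mice, with no separation (g = 0.10, 95% CI -1.02 to 1.22; exact permutation p = 0.873, two-sided). After quantile normalization both had lower means with maslinic acid (Insig1 -0.24, Insig2 -0.37).

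In the deposited values the lowest and the highest g of the members belonged to the transport genes Stard4 and Npc1. That order did not hold under every setting: Fdps was lower than Stard4 with centred arrays (-2.08 against -1.59), and Nsdhl was lower after quantile normalization (-1.44 against -1.19). Mvd was lower without vehicle replicate 2 (-3.15 against -1.65), as were Tm7sf2 and Fdps without replicates 3 and 5 (-4.63 and -3.98 against -2.06). Stard4 encodes a soluble protein that ferries cholesterol between membranes, and is a target of the Srebf2 protein. Its vehicle arrays stood at 199, 236, 109, 120 and 157 steps and its maslinic acid arrays at 126, 82, 0, 67 and 49 steps. Only maslinic acid replicate 1 reached into the vehicle range, above vehicle replicates 3 and 4. The means were 164.2 ± 53.4 steps in vehicle and 64.8 ± 46.1 steps with maslinic acid (SD, n = 5 each; g = -1.80, 95% CI -3.18 to -0.35; limma p = 0.0109, adjusted p = 0.525; exact permutation p = 0.0238, two-sided). Without single arrays g ran from -2.19 to -1.57, and Stard4 kept an unadjusted p under 0.05 in limma with each array centred on its median and without vehicle replicates 3 and 5, but not after quantile normalization.

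Npc1, the membrane protein that moves cholesterol out of the lysosome, had by far the widest range of the members, 7730 steps, and its SD lay above that of 97.95% of genes. Its vehicle arrays stood at 3050, 1868, 0, 3890 and 1538 steps and its maslinic acid arrays at 3940, 5568, 3636, 7730 and 4928 steps. Maslinic acid replicate 3 alone lay below the highest vehicle array, replicate 4. The means were 2069 ± 1490.1 steps in vehicle and 5160.4 ± 1630.7 steps with maslinic acid (SD, n = 5 each; g = 1.79, 95% CI 0.34 to 3.17; limma p = 0.0113, adjusted p = 0.525; exact permutation p = 0.0159, two-sided). Npc1 kept its sign and an unadjusted p under 0.05 in limma after quantile normalization and with centred arrays, but without vehicle replicates 3 and 5 it was not below 0.05.

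Npc2, the soluble partner that hands cholesterol to Npc1, stood at 57, 82, 57, 108 and 0 steps in vehicle mice and at 95, 76, 89, 123 and 124 steps in maslinic acid mice. All maslinic acid arrays but replicate 2 lay above all vehicle arrays but replicate 4, and the groups overlapped (g = 1.14, 95% CI -0.13 to 2.36; limma p = 0.0713, adjusted p = 0.598; exact permutation p = 0.0794, two-sided). The g of Npc2 was 0.07 with centred arrays and 1.67 without vehicle replicate 4, where it was at an unadjusted p under 0.05 in limma. The range of Npc2, 124 steps, is narrower than the spread of the array medians, so that its centred values mostly carry the array's shift. Npc2 was among the brightest members, at a level of 11.28.

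**Figure D3:**
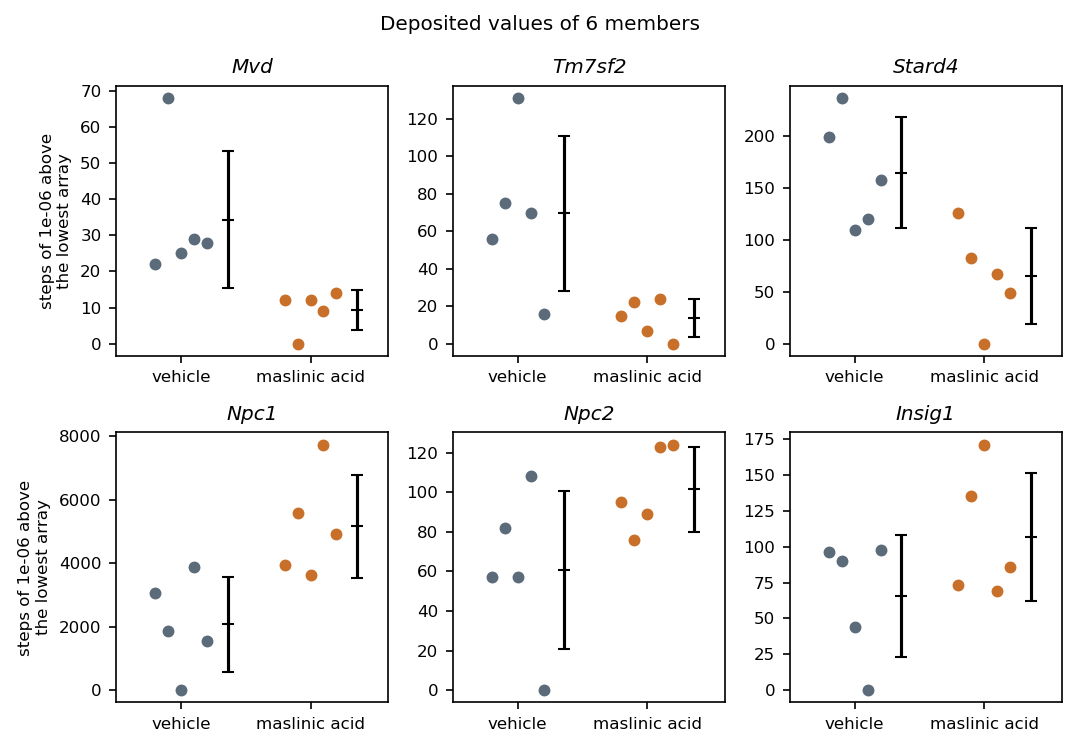
Deposited values of Mvd, Tm7sf2, Stard4, Npc1, Npc2 and Insig1 on each array (points, replicates 1 to 5 from left to right within a group), in steps of 1e-06 above the lowest array of that gene, with the group mean and SD beside the points. Vehicle points of Mvd run from 22 to 68 steps against 0 to 14 with maslinic acid, and the maslinic acid points of Npc1 run from 3636 to 7730 steps against 0 to 3890 in vehicle.

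A score per array, the mean z of the members on it, summarised the pattern across mice. Over all members it averaged 0.10 ± 0.49 for vehicle and -0.10 ± 0.12 for maslinic acid (SD, n = 5 each), so that the difference of -0.20 was smaller than the spread of the vehicle group. The enzymes of synthesis scored 0.42, 0.95, -0.26, -0.30 and 0.18 in vehicle replicates 1 to 5 and -0.02, -0.36, -0.08, -0.16 and -0.37 in maslinic acid replicates 1 to 5. Vehicle replicates 1, 2 and 5 lay above all maslinic acid arrays, and replicates 3 and 4 lay among them. The mean z of all genes stayed between -0.08 and 0.11 on every array. The vehicle SD was the larger one in 18 of 26 members, and in 72.0% of all genes.

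Vehicle replicate 2 had the highest score by a wide margin. It lay above the gene's mean for 24 of 26 members, where the next array, vehicle replicate 1, did so for 17, and it was the highest array for 7 members and the lowest for 0. The same array was the lowest in skeletal muscle markers (mean z = -1.92) and in adipocyte markers (-1.25), with neutrophil markers at 0.68 and proliferation markers at 0.33. The part of tissue makeup in the members' values was not tested. The sensing and transport scores followed another order, with their lowest values in vehicle replicates 3 and 5: -0.75 and -0.64 for sensing, and -0.79 and -0.84 for transport.

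**Figure D4:**
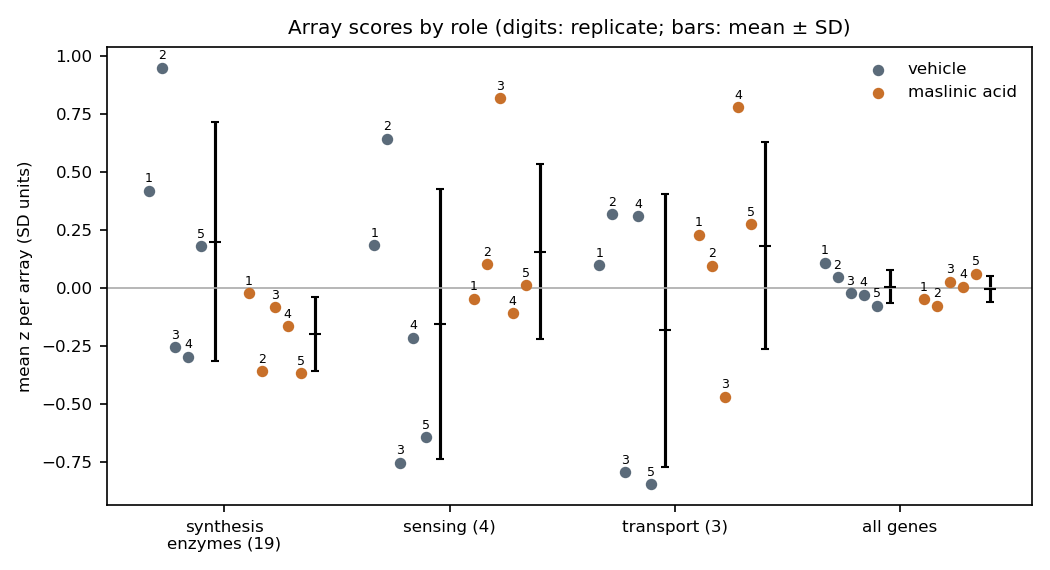
Mean z per array (points, labelled with the replicate number) for the 19 synthesis enzymes, 4 sensing genes, 3 transport genes and all genes, in vehicle and maslinic acid mice, with the group mean and SD as bars. Vehicle replicate 2 tops the enzymes at 0.95, vehicle replicates 3 and 5 lie lowest in transport, and the scores of all genes stay near 0.

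Several members were measured by more than 1 probe set, which allowed the direction to be checked within a gene. Of 17 such members, 8 had the same direction in all their probe sets and 9 had not. Stard4 was lower in all 3 of its probe sets, with g = -2.93 (95% CI -4.70 to -1.10) and g = -0.82 (95% CI -1.98 to 0.39) in those not used above. Idi1, Mvd, Msmo1, Hsd17b7, Ggps1 and Mvk were likewise lower in each of theirs, and Insig2 was higher in each of its 3. The second probe set of Mvd had g = -0.17 (95% CI -1.29 to 0.96), so that the separation of Mvd rested on 1 of 2 probe sets. The second probe set of Msmo1 had g = -1.73 (95% CI -3.09 to -0.30). Its level of 6.06 was below the median probe set (6.74), and its values spanned only 18 steps. The second probe set of Fdps pointed the other way, at g = 1.40, but held only 2 distinct values 1 step apart. Npc2 was higher in 3 probe sets and lower in the fourth, which had a level of 5.92 (g = -1.06). Sc5d was lower only in the probe set used, and its others had g = 0.59, at a level of 6.36, and g = 0.01, at a level of 7.17. Probe sets of a gene share the RNA sample and are not replicates, and Tm7sf2 and Npc1 had 1 each.

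**Figure D5:**
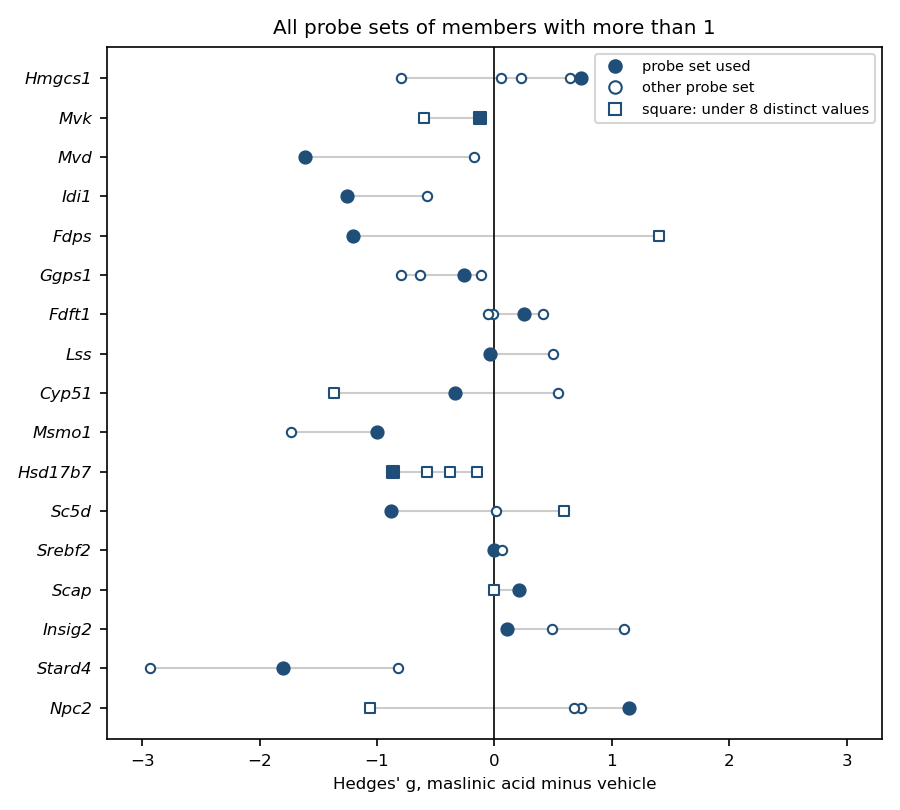
Hedges' g of every probe set of the 17 members with more than 1, maslinic acid minus vehicle. Filled symbols mark the probe set used in the comparison, open symbols the others, and squares those with under 8 distinct values over 10 arrays. All probe sets of Stard4, Idi1 and Msmo1 lie left of 0, and those of Insig2 right of it.

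The members also share a sequence feature that their choice did not use. RefSeq promoters (GRCm38.p6, from 250 bases before to 50 bases after a gene's start) were at hand for 21 of the 26 measured members. The CCAAT box, spelled CCAAT on either strand and known as the site of the factor NF-Y, which works together with the Srebf2 protein on sterol genes, was present in at least 1 promoter of 20 of these 21 genes (95.2%). Of the 14409 measured genes with a promoter, 42.0% held it. The GC box, GGGCGG on either strand, a site of the factor Sp1, was present in 19 of 21 (90.5%), beside 57.4% of measured genes. A sterol regulatory element spelled TCACNCCAC on either strand was found in Hmgcs1 alone, beside 1.46% of measured genes, and its absence elsewhere says only that these letters are not in the window. In the promoters below no CCAAT box shared letters with a sterol element or a GC box.

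These 4 promoters are shown because of their genes. Hmgcs1 is the earliest enzyme of the pathway among the measured members. Mvd and Tm7sf2 are the 2 enzymes with lower values at an unadjusted p under 0.05 in limma. Insig1 is a sensing gene with the opposite sign. Capitals mark CCAAT boxes (CCAAT or ATTGG on the strand printed) and, in Hmgcs1, the sterol element, which begins 137 bases before the start. They lie at chr13:119690101-119690400, plus strand (Hmgcs1), chr8:122443373-122443672, minus strand (Mvd), chr19:6067801-6068100, minus strand (Tm7sf2) and chr5:28071162-28071461, plus strand (Insig1), and each is printed along its gene.
Hmgcs1: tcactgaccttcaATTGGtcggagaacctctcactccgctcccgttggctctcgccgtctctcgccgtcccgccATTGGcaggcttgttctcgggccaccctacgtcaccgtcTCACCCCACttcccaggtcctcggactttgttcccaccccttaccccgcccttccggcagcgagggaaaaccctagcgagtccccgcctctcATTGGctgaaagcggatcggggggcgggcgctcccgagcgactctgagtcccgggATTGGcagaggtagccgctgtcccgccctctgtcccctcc
Mvd: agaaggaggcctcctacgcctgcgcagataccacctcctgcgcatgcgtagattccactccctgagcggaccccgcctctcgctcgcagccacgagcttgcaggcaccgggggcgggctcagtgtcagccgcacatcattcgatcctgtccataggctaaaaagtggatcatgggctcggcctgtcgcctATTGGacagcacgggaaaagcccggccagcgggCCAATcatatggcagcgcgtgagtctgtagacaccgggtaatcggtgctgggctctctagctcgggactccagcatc
Tm7sf2: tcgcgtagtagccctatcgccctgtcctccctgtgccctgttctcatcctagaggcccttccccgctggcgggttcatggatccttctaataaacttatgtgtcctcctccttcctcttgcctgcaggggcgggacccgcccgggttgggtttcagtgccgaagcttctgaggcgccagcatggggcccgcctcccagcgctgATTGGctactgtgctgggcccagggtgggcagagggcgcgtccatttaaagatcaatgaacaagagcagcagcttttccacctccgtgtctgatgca
Insig1: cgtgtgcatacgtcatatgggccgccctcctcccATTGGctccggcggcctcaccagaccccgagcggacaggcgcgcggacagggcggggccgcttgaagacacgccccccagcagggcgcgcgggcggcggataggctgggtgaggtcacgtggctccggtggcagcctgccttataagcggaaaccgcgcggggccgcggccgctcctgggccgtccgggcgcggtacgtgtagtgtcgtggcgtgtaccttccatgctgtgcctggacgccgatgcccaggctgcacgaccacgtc
Hmgcs1 held 4 CCAAT boxes, Mvd 2, and Tm7sf2 and Insig1 1 each. These genes were picked in part by their sign, and 20 of 21 members with a promoter held the box. Its relation to the differences between the groups was therefore not tested.

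Means of genes in neighbouring pathways lay on both sides of vehicle, with wide intervals. Of 67 genes in 6 further lists 58 were measured, and 0 of them passed in limma, nor did any reach an unadjusted p under 0.05. Lipogenic targets of the same transcription factor family were higher in 8 of 11 (median g = 0.41), with Scd1, stearoyl-CoA desaturase, at 1.17 (95% CI -0.12 to 2.39) and Pcyt2, of phosphatidylethanolamine synthesis, at -1.10 (95% CI -2.32 to 0.16). Genes of oxysterols and cholesterol efflux were higher in 8 of 10 (median g = 0.25), with Abca1, an exporter of cellular cholesterol, at 0.95 (95% CI -0.29 to 2.13) and Cyp27a1, a sterol hydroxylase, at 0.59 (95% CI -0.58 to 1.73). Other genes of sterol-dependent control were higher in 6 of 9 (median g = 0.37). Of these, Erlin1, an endoplasmic reticulum membrane protein, was at -1.11 (95% CI -2.32 to 0.16), and Mbtps2, a protease that frees the transcription factor in the Golgi, was at 1.53 (95% CI 0.16 to 2.84) with only 4 distinct values. The limma p of Mbtps2 was 0.0836, since limma draws on the spread of all genes and the interval on that of Mbtps2 alone. Isoprenoid branch enzymes were higher in 6 of 11 (median g = 0.13), with Fntb, a farnesyltransferase subunit, at 1.24 (95% CI -0.06 to 2.48) and Nus1, a subunit of the dolichol-making enzyme, at 0.77 (95% CI -0.43 to 1.93). Further genes of sterol transport inside the cell were higher in 4 of 12 (median g = -0.15), with Osbp at 0.83 and Osbpl2 at -0.69, both oxysterol-binding proteins. Genes of other steps and uptake were higher in 2 of 5 (median g = -0.04), with Idi2, a second isomerase, at -0.999 and Acss2, an acetyl-CoA synthetase, at 0.45.

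No marker of the cells in the tissue passed in limma after adjustment, and 8 of 66 measured over 7 lists (12.1%, beside 8.56% of all genes) had an unadjusted p under 0.05 (3 higher, 5 lower). Cxcr2, a chemokine receptor of neutrophils, had g = -2.71 (95% CI -4.39 to -0.96) and an adjusted p in limma of 0.461. That equals the lowest adjusted p of any gene tested, a value that genes can share under this adjustment. Muscle markers had higher means with maslinic acid in 11 of 11 (median g = 0.32), adipocyte markers in 8 of 8 (median g = 0.78), synovial fibroblast markers in 10 of 10 (median g = 0.33) and macrophage markers in 9 of 10 (median g = 0.29). Higher means were found in 47.9% of all genes and lower means in 48.3%. Markers of a cell type rise and fall together with its share of the tissue, so that these counts are not independent. Of 9 neutrophil markers 8 were lower (median g = -0.57), as were 7 of 9 proliferation markers (median g = -0.44), while skin markers were lower in 6 of 9 (median g = -0.17). Their mean z ranged from -1.92 to 0.69 in vehicle and from -0.77 to 0.91 in maslinic acid mice for muscle, from -1.25 to 0.26 and from -0.37 to 1.38 for adipocytes, and from -0.07 to 1.12 and from -0.53 to -0.02 for neutrophils. Vehicle replicate 2 gave the lowest vehicle value of both muscle and adipocytes. The other vehicle arrays ran from -0.32 to 0.69 for muscle and from -0.46 to 0.26 for adipocytes. For proliferation the ranges were -0.81 to 0.94 and -1.44 to 0.81, for macrophages -0.83 to 0.44 and -0.43 to 1.01, for fibroblasts -1.01 to 0.31 and -0.28 to 0.91, and for skin -0.54 to 0.38 and -0.70 to 0.42. Their part in the members' differences was not tested.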

How the data were processed

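RNA of left hind leg synovium was hybridised to an Affymetrix mouse array for each mouse, per the labels' protocols. The value table deposited by the authors holds 1 score per probe set and array. It is called a score because its scale is unknown, and R 3.2.1 is the only tool the submitters' processing notes name. How background was corrected, arrays normalized and probes summarised is not given in the sources used here, and the test planned for log2 values was run on the scores as they stand. All 10 columns were used. Groups and replicate numbers come from the titles.

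The platform annotation named 1 gene for 34202 probe sets, several for 931 (not used) and none for 4860. The members, lists and tests were chosen with earlier results of these data known, which include the separation of vehicle replicates 3 and 5. The 18128 genes went through limma 3.58.1 under R 4.3.3 (lmFit, then eBayes), with group as the sole term, two-sided, with a prior of 0.478 degrees of freedom and Benjamini-Hochberg adjustment over all genes at 0.05. Exact tests used all 252 assignments of 5 arrays to a group. Intervals of g come from the noncentral t distribution (scipy 1.17.1). The scripts were tested on simulated data. Members with an unadjusted p under 0.05 or without overlap, Insig1, Insig2, Npc1, Npc2, Srebf2 and Scap were to be described in full, and the 2 genes of lowest p could be named from each list. Alternatives were the replicate block, quantile normalization, centred arrays, a filter at the median level, other probe sets per gene, trended and robust eBayes, array weights, the exact test, and arrays left out.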

Additional observations from a re-analysis of the deposited data

Results flagged for a closer look

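Dixon's test for 1 far array was applied to 64 groups of 5 values (26 members and 6 scores in both groups), with 0.71 as the critical share of the range, which chance passes in about 5% of groups. It marked 6. Among vehicle arrays, Mvk in replicate 1 lay 0.75 of the group's range from its nearest neighbour, on a range of 4 steps. Mvd in replicate 2 had a gap of 0.848 and Lss in replicate 3 one of 0.733. The score of the 3 genes from squalene to lanosterol had a gap of 0.965 in vehicle replicate 3. Among maslinic acid arrays, Sqle in replicate 2 had a gap of 0.714, and the score of the 4 sensing genes one of 0.772 in replicate 3.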

How the results depend on the processing

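No member passed under any alternative run. The count at an unadjusted p under 0.05 in limma was 4, beside 765 higher and 787 lower of all 18128 genes. It ran from 4 to 7 without single arrays. Without vehicle replicate 4 it was 7 (2 higher and 5 lower), beside 1033 higher and 1096 lower of all genes. Without vehicle replicate 3 it was 6 (1 higher and 5 lower), beside 594 and 698 of all genes. With the replicate number as a block (replicate block) it was 3. The count was also 3 after quantile normalization, with centred arrays, with the filter at the median level and with probe sets averaged. With array weights it was 5. Members with higher means numbered 9, with 9 to 13 when single arrays were left out and 4 after quantile normalization. The difference of the mean score was -0.20, between -0.35 and -0.07 when single arrays were left out, -0.43 after quantile normalization, -0.39 with centred arrays and -0.49 without vehicle replicates 3 and 5. Deviations of same-numbered arrays of the groups had correlations from -0.39 to 0.35. For 2 of 5 numbers, replicates 1 (0.35) and 4 (0.34), the array correlated best with its own number. So few mixed values cannot decide whether the numbers pair arrays. The median g of all genes was -0.27 after quantile normalization and -0.39 with centred arrays, and the share of higher genes among those at an unadjusted p under 0.05 was 13.7% and 63.4% against 49.3% in the values as deposited. Values of g with the other sign were, after quantile normalization, Hmgcs1 -0.89, Pmvk 0.14, Fdft1 -0.97, Ebp -0.21, Scap -0.56, Insig1 -0.24, Insig2 -0.37; with centred arrays, Dhcr7 -0.27, Insig2 -0.32; as the mean of all probe sets, Lss 0.35, Srebf2 0.014; and without vehicle replicates 3 and 5, Ggps1 0.65, Ebp -0.40, Dhcr7 -0.25, Scap -0.90. The cause was not tested. With centred arrays, the g of a member with a narrow range mostly carries the shift that all genes of an array share. Lbr had no spread after quantile normalization and gave no g there. Without single arrays the sign turned for 12 members, whose g ran for Cyp51 from -0.73 to 0.0087, Dhcr7 from -0.0137 to 0.87, Fdft1 from -0.0416 to 0.82, Ggps1 from -0.83 to 0.072, Insig2 from -0.38 to 0.42, Lss from -1.15 to 0.19, Mvk from -0.30 to 0.55, Nsdhl from -0.38 to 0.37, Pmvk from -0.69 to 0.11, Scap from -0.43 to 0.44, Sqle from -0.49 to 0.29, Srebf2 from -0.35 to 0.39. Rounding to 6 decimals limits Mvk, Pmvk and Hsd17b7, which held under 8 distinct values.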
